A study of Mus musculus with 6 samples.

Results

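Enzymes that make, split and interconvert glycine and serine and hand on their carbon to folate were examined in mouse uterine epithelium. The set was defined by name as 10 genes, with earlier results of these data known. Counts set beside those of all genes therefore describe the set and do not test it. Every probe set that the array annotation gives to one of the 10 alone was used. These were 22 probe sets of 9 genes, out of 34945 single-symbol probe sets of 18193 genes. Amt, the aminomethyltransferase of the glycine cleavage system, had no probe set named for it and was not analysed here, nor were 2 probe sets that carry the Phgdh symbol beside another gene's. The epithelium came from 3 groups of pregnant females with 2 arrays each: mice on day 4 that were Sox17GFP/+, with a GFP allele of the transcription factor gene Sox17 beside a normal copy (Sox17 heterozygous), wild-type (WT) mice on day 4, and WT mice on day 1, the day of the vaginal plug. The labels name no promoter or Cre that would limit the mutation to 1 cell type. All groups shared the same enzymatic separation with pancreatin and dispase, and strain and age were not given in the sources used here. The samples carry individual numbers, but nothing says that each was a separate animal or a pool, so the p-values measure the spread between these samples.

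The glycine cleavage system is a mitochondrial complex that breaks glycine down and passes its carbon to tetrahydrofolate. GLDC releases carbon dioxide from glycine, GCSH carries the remaining group on a lipoyl arm, AMT transfers the carbon to folate, and DLD, shared with other complexes, reoxidises the arm. Serine is made from a glycolytic intermediate by PHGDH, PSAT1 and PSPH in turn. The hydroxymethyltransferases SHMT1 in the cytosol and SHMT2 in mitochondria interconvert serine and glycine, and MTHFD1 (cytosol) and MTHFD2 (mitochondria) carry the folate-bound carbon towards formate, purines and thymidylate. MTHFD2 and SHMT2 are best known from dividing cells.

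Promoter windows are shown for 4 members, because they form pairs that act next to each other in mitochondria and yet differed in direction between day 4 and day 1: Gldc with Gcsh, and Mthfd2 with Shmt2. Each runs 5′ to 3′ from 250 bases before a RefSeq transcript start to 50 bases after it (build GRCm38.p6), and capitals mark the transcribed bases. The windows are chr19:30175392-30175691 (minus strand) for Gldc, chr8:116993449-116993748 (minus) for Gcsh, chr6:83317555-83317854 (minus) for Mthfd2 and chr10:127522395-127522694 (minus) for Shmt2. The Mthfd2 window lies inside the annotated span of its gene, chr6:83305704-83326011, at the start of a transcript that begins within that span, while the other 3 windows sit at the ends of their genes.
Gldc: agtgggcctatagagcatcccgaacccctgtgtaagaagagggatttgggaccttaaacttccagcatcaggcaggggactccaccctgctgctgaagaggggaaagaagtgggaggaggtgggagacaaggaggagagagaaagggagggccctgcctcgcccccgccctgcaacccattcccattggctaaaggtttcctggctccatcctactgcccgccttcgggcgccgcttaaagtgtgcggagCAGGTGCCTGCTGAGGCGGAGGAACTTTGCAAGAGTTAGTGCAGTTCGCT
Gcsh: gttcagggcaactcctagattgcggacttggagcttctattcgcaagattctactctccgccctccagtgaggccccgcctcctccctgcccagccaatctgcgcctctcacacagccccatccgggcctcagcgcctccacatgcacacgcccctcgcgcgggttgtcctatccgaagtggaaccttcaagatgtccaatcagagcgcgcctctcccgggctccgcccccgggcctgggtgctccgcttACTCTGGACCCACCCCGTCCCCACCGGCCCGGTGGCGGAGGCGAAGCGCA
Mthfd2: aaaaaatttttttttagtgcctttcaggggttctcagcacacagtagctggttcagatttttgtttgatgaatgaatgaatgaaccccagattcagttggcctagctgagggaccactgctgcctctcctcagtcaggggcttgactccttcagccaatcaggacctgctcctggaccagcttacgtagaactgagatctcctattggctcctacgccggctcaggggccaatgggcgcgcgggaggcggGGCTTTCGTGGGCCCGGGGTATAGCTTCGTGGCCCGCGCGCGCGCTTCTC
Shmt2: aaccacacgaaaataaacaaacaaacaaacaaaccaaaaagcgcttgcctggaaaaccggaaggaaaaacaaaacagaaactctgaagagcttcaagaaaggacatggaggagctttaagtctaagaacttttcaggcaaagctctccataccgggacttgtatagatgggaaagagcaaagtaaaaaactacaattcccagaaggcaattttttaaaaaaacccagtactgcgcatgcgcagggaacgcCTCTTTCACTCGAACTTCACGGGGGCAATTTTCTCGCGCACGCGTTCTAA
The Gldc window held 10 CpG dinucleotides and the Gcsh window 24, while those of Mthfd2 and Shmt2 held 15 and 13, against a median of 7 over 32851 mouse promoter windows. On both strands, none of the 11 windows of the 10 genes (Psat1 has a pair of them) held the ATF4 element TGATGNAA or the E-box CACGTG, which 3.97% and 7.15% of all windows hold. The SOX core ACAATG stood in 1, that of Amt, against 12.6% of all windows. No motif contains another, and a missing match says only that these letters are not in the window.

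The preparations read as epithelium on all arrays. The 10 epithelial markers (Epcam, Cdh1, keratins and claudins among them) summed to signals of 165305 to 165949 in heterozygotes, 156442 to 170122 in WT on day 4 and 168943 to 174899 in WT on day 1, with no marker below 50. Signals are in linear array units on arrays that the authors scaled to 1 trimmed mean, and a signal below 50 is called dim here. WT day 4 array 277 stood apart, with 27.0% of all probe sets below 50 against 41.6% to 44.6% on the other 5 arrays. The 10 stroma markers summed to 1135 to 1682 in heterozygotes, 2369 to 3222 in WT on day 4 and 13108 to 18897 in WT on day 1. The 9 macrophage markers summed to 13793 to 14421, 16969 to 17226 and 21187 to 22692 in that order of groups. The macrophage sum was mostly Cd14 (12139 to 15709 over all arrays), with Cd68 at 6401 and 5746 in WT on day 1 and 224 and 157 on day 4. Lyz2 went the other way, with 177 and 236 in WT on day 1 and 1223 and 980 on day 4. The median log2 change of the 9 between these WT groups was 1.06. In the order heterozygotes, WT day 4 and WT day 1, the 8 smooth muscle markers summed to 223 to 290, 962 to 1091 and 917 to 918. The 7 endothelial markers summed to 197 to 235, 367 to 806 and 273 to 435, and the 7 lymphocyte markers to 164 to 196, 282 to 964 and 318 to 409. For endothelial and lymphocyte markers the higher WT day 4 sum was that of array 277. Stroma, muscle and macrophage sums were lower on array 277 than on WT array 284. The muscle sum of WT on day 4 was mostly Synpo2, at 545 and 780 there and 14.2 and 21.3 in WT on day 1. Acta2 read 143 and 191 in WT on day 4 and 505 and 504 on day 1, and the median log2 change of the 8 was -0.20. Below 50 on an array were 5 to 7 of 8 muscle markers in heterozygotes, 4 to 5 in WT on day 4 and 4 to 5 in WT on day 1, and 6 of 7 lymphocyte markers in heterozygotes, 2 to 5 in WT on day 4 and 3 to 4 in WT on day 1. Of the stroma markers 3 to 6 were below 50 in heterozygotes, 1 to 3 in WT on day 4 and 2 to 3 in WT on day 1. None of these markers was at 0. The brightest stroma marker, the matrix protein gene Fbln1, read 648 and 777 in heterozygotes, 618 and 379 in WT on day 4 and 9585 and 9945 in WT on day 1, and the proteoglycan gene Dcn 187 and 356, 296 and 997, and 1318 and 3243 in that order of groups. Between WT on day 4 and day 1, 0 stroma markers rose and 1 fell (4 fell with an intensity trend in the model), while 1 smooth muscle marker rose and 1 fell and 2 macrophage markers rose and 1 fell. Of the epithelial markers, Cldn3 rose (mean signals of 30426 on day 4 and 11570 on day 1) and Krt7 fell (2174 and 10888). With a trend 1 epithelial marker rose and 3 fell, and 1 endothelial marker rose. Between heterozygotes and WT on day 1, 2 stroma and 2 smooth muscle markers fell (6 and 3 with a trend). In that comparison 1 epithelial marker fell, and 1 macrophage marker rose and 1 fell. With a trend 2 epithelial markers rose and 2 fell. Between heterozygotes and WT on day 4, 0 markers passed in the default model, where 0 of 18193 genes passed at all. The median log2 changes there were -1.27 for stroma, -1.12 for smooth muscle and -1.71 for endothelial markers. They were -0.51 for macrophage, -1.97 for lymphocyte and 0.11 for epithelial markers, against -0.20 for all genes. With a trend, 2 epithelial markers were higher, and 1 stroma and 1 smooth muscle marker were lower. From WT day 1 to day 4 the 10 stroma markers had a median log2 change of -1.16. Hoxa11, Pdgfra and Hand2 were at 1.09, 1.15 and 1.10 without passing, with mean signals of 112, 21.3 and 56.7 on day 4. On WT day 4 arrays 277 and 284, Hoxa11 read 157 and 68.0, Hand2 86.7 and 26.7, and Pdgfra 11.8 and 30.8. Fewer cells of a type, less RNA per cell, changes in single genes and fewer dim signals on array 277 cannot be told apart here. Their part in the results below was not tested.

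**Figure D1:**
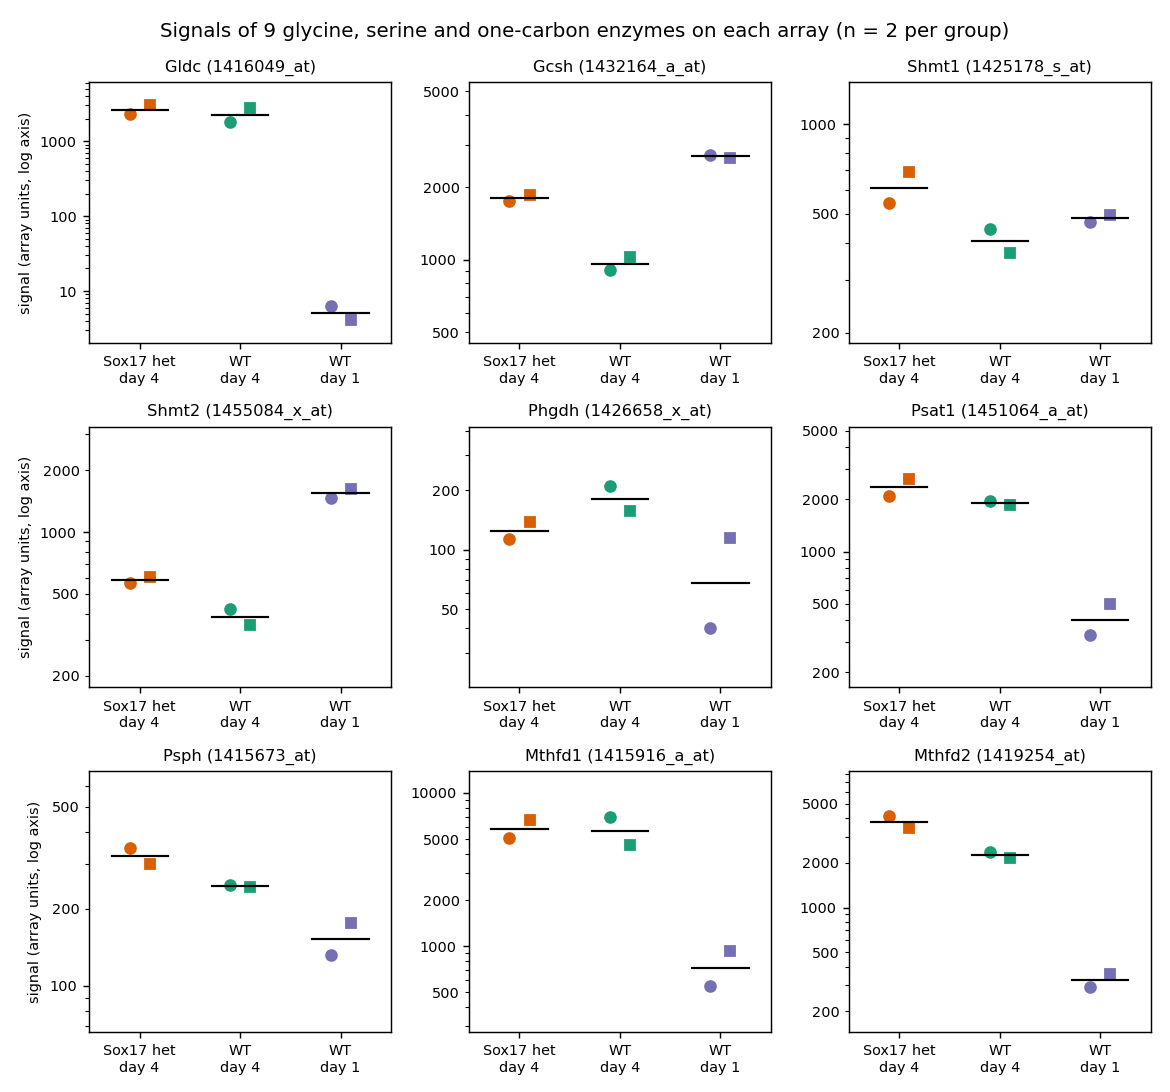
Signals (linear array units on a log axis) of the probe set with the highest mean for each of the 9 measured genes, on every array of Sox17 heterozygous day 4, WT day 4 and WT day 1 epithelium. Circles and squares are the 2 arrays of a group and bars the mean of their log2 values; Gldc reads 4.08 and 6.36 on day 1 and 1809 to 3042 on the day 4 arrays, while Gcsh and Shmt2 are highest on day 1.

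The first comparison asked how these enzymes change in WT epithelium between day 1, when the uterus is under estrogen, and day 4, when progesterone prevails and the embryo is about to attach. The genes that rose were 4 (Gldc of glycine breakdown, Psat1 of serine synthesis, and the folate enzymes Mthfd1 and Mthfd2), those that fell 2 (Gcsh of glycine breakdown and the mitochondrial Shmt2), and Shmt1, Phgdh and Psph did not pass. The 6 genes called of 9 compare with 10.5% of all genes (limma, Benjamini-Hochberg adjusted p under 0.05), and the 4 rises and 2 falls with 5.96% and 4.58%. The median log2 change of the 9 genes was 1.40, and that of all genes 0.30. Every gene had day 4 and day 1 signals that did not overlap, 6 higher and 3 lower on day 4, where 56.6% of all genes do the same, 35.4% higher and 21.3% lower. By probe set, 10 of 22 were called, 8 higher and 2 lower, against 9.19%, 5.04% and 4.15% of all probe sets.

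Gldc (probe set 1416049_at) showed the widest difference. It had signals of 2271 and 3042 on the heterozygous arrays, 1809 and 2751 on the WT day 4 arrays, and 6.36 and 4.08 on the WT day 1 arrays. The transcript of the glycine-splitting subunit was thus dim on day 1 and bright in every day 4 sample. The log2 change from day 1 to day 4 in WT was 8.51 ± 0.37 (SE, n = 2 arrays per group, adjusted p = 0.00677). Against signals this dim the size depends on the pseudocount of 1, and with 32 added to each signal the change was 5.93.

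Gcsh (1432164_a_at), which carries the glycine-derived group between the subunits, went the other way. Its signals were 1755 and 1853 in heterozygotes, 905 and 1023 in WT on day 4 and 2719 and 2650 in WT on day 1. Both day 4 WT values lay below every other value, and the change was -1.48 ± 0.22 (adjusted p = 0.0291). The catalytic and the carrier transcript of the same complex therefore changed in opposite directions. DLD, the subunit shared with other complexes and no member of the set, had a log2 change of -0.10 ± 0.23 for its gene Dld (adjusted p = 0.827).

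The hydroxymethyltransferases differed from each other. Shmt2 (1455084_x_at) had signals of 565 and 606 in heterozygotes, 420 and 352 in WT on day 4 and 1466 and 1622 in WT on day 1. The mitochondrial enzyme's transcript was lower on all 4 day 4 arrays than on either day 1 array, and its change in WT was -2.0 ± 0.23 (adjusted p = 0.0191). This probe set is of the x type, whose probes can also bind other transcripts. The one Shmt2 probe set without that mark (1426423_at) read 182 and 136 in heterozygotes, 275 and 178 in WT on day 4 and 501 and 616 in WT on day 1, a change of -1.32 ± 0.34 that did not pass (adjusted p = 0.0901). The other 2 Shmt2 probe sets were dimmer and had changes of -0.83 and -1.63, also without passing. Shmt1 (1425178_s_at), its cytosolic counterpart, had signals of 543 and 690 in heterozygotes, 444 and 369 in WT on day 4 and 470 and 496 in WT on day 1. Its change with day was -0.25 ± 0.25 (adjusted p = 0.583, 95% interval -0.93 to 0.42), and its 4 probe sets ranged from -0.63 to 0.56 without passing. The dimmest (1422198_a_at) read 211 and 305 in heterozygotes, 101 and 69.6 in WT on day 4 and 168 and 101 in WT on day 1, so its WT groups overlapped.

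In serine synthesis, Psat1 (1451064_a_at) had signals of 2104 and 2631 in heterozygotes, 1959 and 1853 in WT on day 4 and 328 and 496 in WT on day 1. The aminotransferase of the middle step was higher in every day 4 sample, with a change of 2.24 ± 0.31 in WT (adjusted p = 0.0258), and its other probe set gave 2.36 ± 0.35 (adjusted p = 0.0303). Psph (1415673_at), the phosphatase of the last step, had 344 and 298 in heterozygotes, 247 and 243 in WT on day 4 and 132 and 176 in WT on day 1. The groups did not overlap, but the change of 0.68 ± 0.26 did not pass (adjusted p = 0.188, 95% interval -0.00 to 1.36). Phgdh, the dehydrogenase of the first step, was the least well measured member. Its 4 usable probe sets were all of the x type, and the brightest (1426658_x_at) read 113 and 138 in heterozygotes, 209 and 156 in WT on day 4 and 40.2 and 114 in WT on day 1. Its change was 1.40 ± 0.56 (adjusted p = 0.209), while the other 3 gave -0.13, -0.02 and 2.0 with SEs of 0.35 to 1.03, so the direction differed between probe sets.

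Of the folate enzymes, Mthfd1 (1415916_a_at) had signals of 5116 and 6701 in heterozygotes, 6910 and 4542 in WT on day 4 and 554 and 927 in WT on day 1. All 3 of its probe sets rose in WT, with changes of 2.97 ± 0.40, 2.74 ± 0.38 and 2.44 ± 0.28 (adjusted p = 0.0251, 0.0264 and 0.0189). Mthfd2 (1419254_at) had 4144 and 3448 in heterozygotes, 2377 and 2153 in WT on day 4 and 290 and 357 in WT on day 1. Both of its probe sets rose, by 2.81 ± 0.25 and 2.62 ± 0.41 (adjusted p = 0.0126 and 0.0332). The cytosolic and the mitochondrial folate dehydrogenase transcripts thus moved the same way with day, with ratios of mean signals of 7.73 and 6.99. The cell division list (Mki67, Top2a and 14 others) had a median log2 change of 0.99 between these groups, with 1 of 15 measured genes rising (Top2a, 2.45 ± 0.37) and 1 falling (Bub1, with mean signals of 2.73 on day 4 and 20.4 on day 1). With a trend 6 of the 15 rose and 0 fell, beside 2500 rising and 1930 falling of 18193 genes. At an unadjusted p under 0.05 there were 7 higher and 2 lower, beside 3099 and 2079 of all genes. The part of cell division in the folate result was not tested.

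The calls with day depended on how the spread was estimated. With an intensity trend in the model the same 6 genes were called (24.4% of all genes), also when any single array was left out. In the default model none was called without day 1 array 302 or 303, or without heterozygous array 253 or 281, and these settings called 0 of 34945 probe sets at all, with 6285 to 7417 at an unadjusted p under 0.05. Without WT array 277 the calls were Gldc, Mthfd2 and Shmt2, and without WT array 284 that of Psat1 was lost. Centring each array on its median ended the calls of Gcsh (-1.69, adjusted p = 0.0999) and Psat1 (2.02, adjusted p = 0.0655), and it moved the median change of all probe sets to 0.03 from 0.24, with 941 rises among 2197 called probe sets in place of 1761 among 3210.

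**Figure D2:**
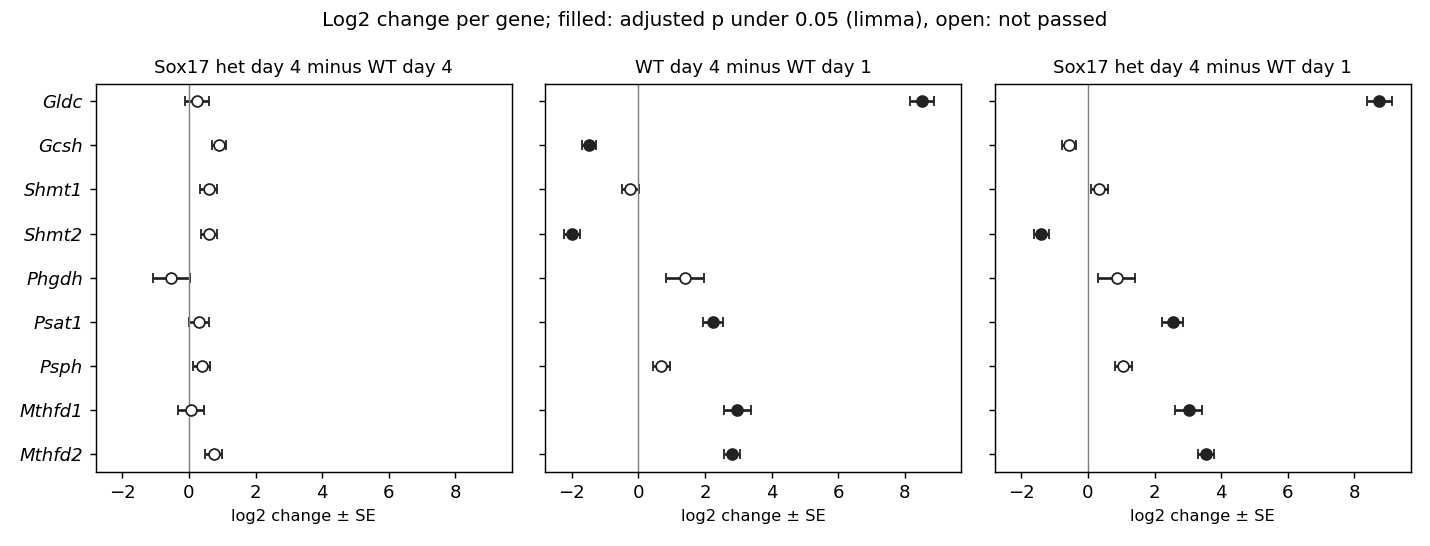
Log2 change with limma's standard error for the 9 genes in Sox17 heterozygous against WT epithelium on day 4, in WT on day 4 against day 1, and in heterozygotes on day 4 against WT on day 1. Filled points passed at an adjusted p under 0.05: none in the first panel, 6 in the second and 5 in the third.

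The second comparison asked whether these enzymes differ on day 4 in epithelium heterozygous for the Sox17 mutation. Sox17 itself read 30189 and 28810 in heterozygotes and 34794 and 35060 in WT at its brighter probe set, and 13304 and 13061 against 22781 and 18473 at the other, and whether these probe sets also bind the GFP allele's transcript is unknown. None of the 9 genes passed, beside 0% of all genes in the default limma model. In heterozygotes 8 of the 9 had a higher mean and Phgdh a lower one, with a median log2 change of 0.38 against -0.20 for all genes. The median over all probe sets, -0.18 here, was 0.09 after centring on the median and 0.02 without WT array 277. At an unadjusted p under 0.05 there were 2, Gcsh and Mthfd2, both higher, beside 747 higher and 1477 lower of 18193 genes. Signals of the groups did not overlap for 6 genes that were higher and 1 that was lower, where 48.5% of all genes do not overlap (18.0% higher and 30.6% lower).

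Gcsh had the smallest adjusted p of the 9. Its 1755 and 1853 in heterozygotes stood against 905 and 1023 in WT on day 4, a log2 change of 0.91 ± 0.22 (adjusted p = 0.295, 95% interval 0.33 to 1.48). In the model with an intensity trend it was the 1 gene of the set that was called (adjusted p = 0.0143, with 3.11% of all genes called and 1.7% higher). That call ended after centring on the median and without heterozygous array 253 or 281. The heterozygous level lay between those of WT on day 4 and WT on day 1.

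Mthfd2 read 4144 and 3448 in heterozygotes against 2377 and 2153 in WT, a change of 0.74 ± 0.25 (adjusted p = 0.388, and 0.0622 with a trend). At its other probe set the groups overlapped, with 2781 and 2485 in heterozygotes and 2833 and 1397 in WT. Its size was therefore less certain than the brighter probe set alone would show. The cell division list was higher in the same heterozygotes by a median of 1.13, with 0 of 15 genes passing in the default model and 3 (Bub1, Rrm2 and Mki67) with a trend (6 at an unadjusted p under 0.05), and the summed signal of the 15 was 14313 and 15515 in heterozygotes, against 9593 and 11075 in WT. Whether that has a part in the Mthfd2 values was not tested.

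Mthfd1 gave different answers by probe set. The brightest 2 read 5116 and 6701 against 6910 and 4542, and 3206 and 3969 against 3818 and 2310 (heterozygous against WT), with changes of 0.06 ± 0.40 and 0.26 ± 0.38 and overlapping groups. The third (1436704_x_at), which is of the x type, read 1095 and 1635 against 490 and 495, a change of 1.44 ± 0.28 (adjusted p = 0.255, and 0.0170 with a trend). With a trend, 2 of the 22 probe sets were called, both higher, against 2.37% of all probe sets called and 1.34% higher. In the default model this was the lowest adjusted p of the 22 probe sets, in a gene whose brighter probe sets overlapped between groups.

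For Gldc the heterozygous signals of 2271 and 3042 overlapped those of WT on day 4, 1809 and 2751, with a change of 0.24 ± 0.37 (adjusted p = 0.797). The 95% interval ran from -0.74 to 1.21, which leaves room for a change of either sign. Psat1 was at 0.30 ± 0.31 and Psph at 0.38 ± 0.26 (adjusted p = 0.692 and 0.569), with heterozygous values above both WT values in each case. Phgdh was at -0.53 ± 0.56 (adjusted p = 0.706). Shmt1 was at 0.60 ± 0.25 (adjusted p = 0.450) and all 4 of its probe sets were higher, by 0.14 to 1.59. Shmt2 was at 0.60 ± 0.23 (adjusted p = 0.420) at its brightest probe set but at -0.49, -0.13 and -0.27 at the other 3, and the mean of its probe sets gave -0.07.

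**Figure D3:**
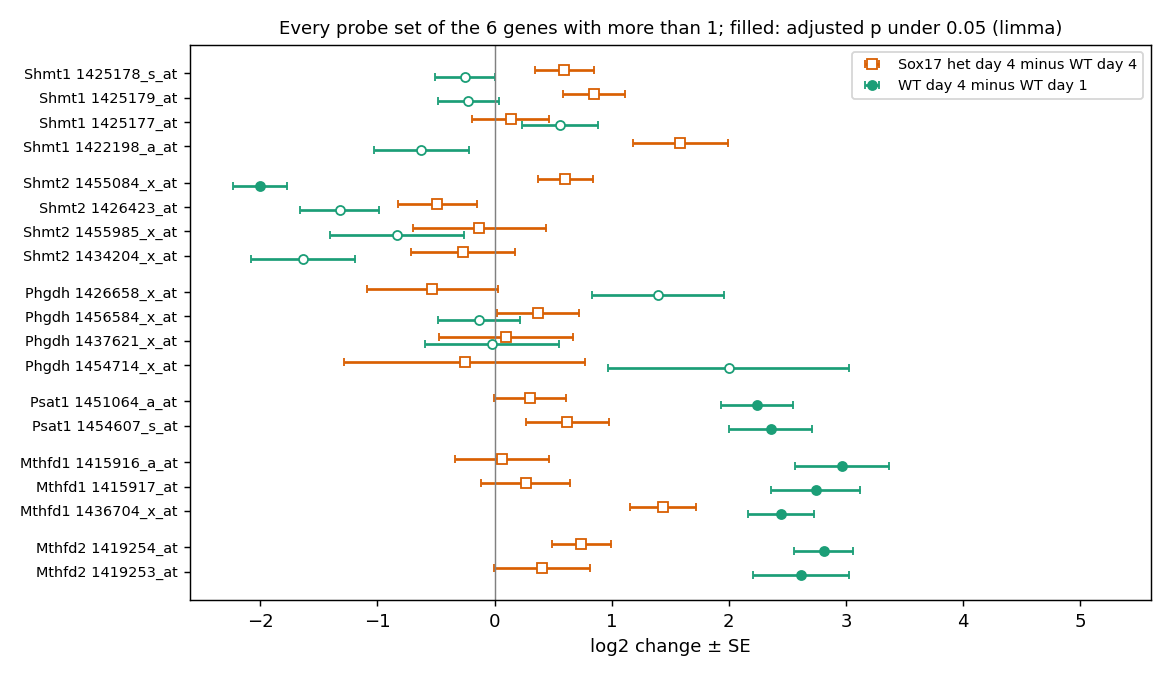
Log2 change with standard error of every probe set of the 6 genes that have more than 1, in Sox17 heterozygous against WT epithelium on day 4 (squares) and in WT on day 4 against day 1 (circles); filled symbols passed at an adjusted p under 0.05. The probe sets of Psat1, Mthfd1 and Mthfd2 passed together with day, while those of Phgdh spread from -0.13 to 2.0 and those of Shmt2 lay on both sides of 0 in heterozygotes.

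Heterozygotes on day 4 were also set against WT on day 1, where genotype and day differ together and which shares its arrays with the other comparisons. Gldc (8.75 ± 0.37), Mthfd2 (3.55 ± 0.25), Mthfd1 (3.03 ± 0.40) and Psat1 (2.54 ± 0.31) were higher and Shmt2 (-1.40 ± 0.23) was lower (adjusted p = 0.00897, 0.0134, 0.0306, 0.0262 and 0.0463). These 5 calls of 9, 4 higher and 1 lower, compare with 7.15% of all genes, 3.8% higher and 3.35% lower. With a trend 7 of 9 were called, against 20.6% of all genes. Signals did not overlap for 6 higher and 2 lower genes, and 62.3% of all genes do not overlap, 32.2% higher and 30.1% lower. In the same comparison the cell division list had 5 of 15 genes higher and 0 lower (14 higher with a trend, median 2.12), and the stroma markers had 2 of 10 lower (6 with a trend, median -2.89). Their part in these differences was not tested. Gcsh was at -0.57 ± 0.22 and did not pass (adjusted p = 0.223, and 0.0269 with a trend). Psph was at 1.06 ± 0.26 (adjusted p = 0.0965, and 0.0414 with a trend), Phgdh at 0.87 ± 0.56 and Shmt1 at 0.34 ± 0.25 (adjusted p = 0.461 and 0.521). Centring on the median ended the call of Shmt2 (-1.34, adjusted p = 0.148). In the default model none of the 5 was called without day 1 array 302 or 303 or heterozygous array 253 or 281, and with an intensity trend Gldc, Psat1, Mthfd1, Mthfd2 and Shmt2 were called when any single array was left out.

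By mean log2 level of the brightest probe set, Gldc, Psat1, Psph, Mthfd1 and Mthfd2 were highest in heterozygotes, then WT on day 4, then WT on day 1. For Gldc and Mthfd1 the day 4 groups overlapped. Gcsh and Shmt2 had the order WT day 1, heterozygous, WT day 4, Shmt1 the order heterozygous, WT day 1, WT day 4, and Phgdh the order WT day 4, heterozygous, WT day 1. At every other Shmt2 probe set the order was WT day 1, WT day 4, heterozygous. The order also differed between the probe sets of Shmt1 and between those of Phgdh. For Phgdh the lower heterozygous value, 113, lay just below the higher day 1 value, 114, and no pair of groups passed the test. The heterozygous and WT day 4 means of no gene differed beyond the default test. Over the 9 genes the higher array of a pair exceeded the lower by a median ratio of 1.22 in heterozygotes, 1.2 in WT on day 4 and 1.33 in WT on day 1, where the largest, 2.84, was that of Phgdh.

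Related lists of genes were counted in the same way, beside 5.96% of all genes rising and 4.58% falling with day. Of 18 measured folate enzymes and transporters outside the set, 3 rose in WT on day 4 and 15 did not pass (median 0.44). They were Slc46a1, the proton-coupled folate transporter (3.65 ± 0.31), Tyms, which makes thymidylate with folate-bound carbon (3.63 ± 0.34), and Slc25a32, which carries folate into mitochondria (1.25 ± 0.22), with adjusted p-values of 0.0116, 0.0132 and 0.0415. Tyms and Slc46a1 were dim on day 1, with mean signals of 14 and 18.1. With a trend 5 of the 18 rose and 2 fell, beside 2500 rising and 1930 falling of 18193 genes. At an unadjusted p under 0.05 there were 5 higher and 2 lower, beside 3099 and 2079 of all genes. Among the falls was Ggh (-1.28 ± 0.26, adjusted p = 0.0539, and 0.00118 with a trend). Mthfd1l, which completes formate release in mitochondria, was at 0.31 ± 0.35 (adjusted p = 0.625). In heterozygotes against WT on day 4, 0 of 18 passed (median 0.14), with 0 higher and 1 lower at an unadjusted p under 0.05 and 0 called with a trend.

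The methionine cycle and betaine list had 6 of 16 genes rising and 1 falling with day (median 0.71). Mtr, which passes a methyl group from folate to homocysteine, rose by 3.08 ± 0.23, and Cth, which makes cysteine from cystathionine, by 4.22 ± 0.41. Aldh7a1, an aldehyde dehydrogenase that also acts on betaine aldehyde, rose by 2.87 ± 0.27, and Ahcyl2, a relative of the homocysteine-releasing hydrolase, fell by 2.09 ± 0.24. Their adjusted p-values were 0.0106, 0.0138, 0.0136 and 0.0186. In heterozygotes 0 of 16 passed in the default model, with 1 higher and 2 lower at an unadjusted p under 0.05, and 2 were called lower with a trend. These were Cbs, which joins serine to homocysteine, with mean signals of 144 in heterozygotes and 1204 in WT (-3.27 ± 0.67, adjusted p = 0.262, and 0.00949 with a trend), and Mtr, with 567 in heterozygotes and 1290 in WT (-1.18 ± 0.23, adjusted p = 0.253, and 0.0191 with a trend).

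Among 16 other genes that use or make glycine and serine, 1 rose with day, Sptlc3, a subunit of the serine palmitoyltransferase that starts sphingolipid synthesis (7.17 ± 0.23, adjusted p = 0.00677, list median 0.30). Its mean signal was 12.4 on day 1, so the size of that change depends on the pseudocount. Of 14 transporters, 1 fell, the neutral amino acid carrier Slc1a5 (-1.91 ± 0.27, adjusted p = 0.0277, median 0.78). Of 19 genes of the ATF4 amino acid response, 1 rose and 2 fell (median -0.38): Sesn2 (2.14 ± 0.33, adjusted p = 0.0318), Nupr1 (-5.33 ± 0.53, adjusted p = 0.0140) and Eif4ebp1 (-3.77 ± 0.27, adjusted p = 0.0105). ATF4 is known to induce Psat1, Phgdh, Psph, Shmt2 and Mthfd2. Its own gene was at -0.47 ± 0.25 (adjusted p = 0.314). A transcript level does not measure ATF4 activity, and the part of ATF4 in the changes of the members was not tested. Of 10 purine synthesis genes, Ppat, which commits ribose phosphate to purines, rose (1.72 ± 0.25, adjusted p = 0.0279, median 0.13).

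In heterozygotes against WT on day 4 none of these 4 lists had a gene that passed in the default model. At an unadjusted p under 0.05 there were 1 higher and 1 lower among the glycine and serine users, 0 and 2 among transporters, 1 and 1 in the ATF4 list and 1 and 0 in purine synthesis. With a trend, the cystine transporter Slc7a11 (adjusted p = 0.0320) and Prps1 of ribose phosphate activation (adjusted p = 0.0387) were called higher, and no gene of the other 2 lists was. The changes of Slc7a11 and Prps1 were 1.68 ± 0.42 and 1.35 ± 0.39, with errors from the default model, in which neither passed.

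**Figure D4:**
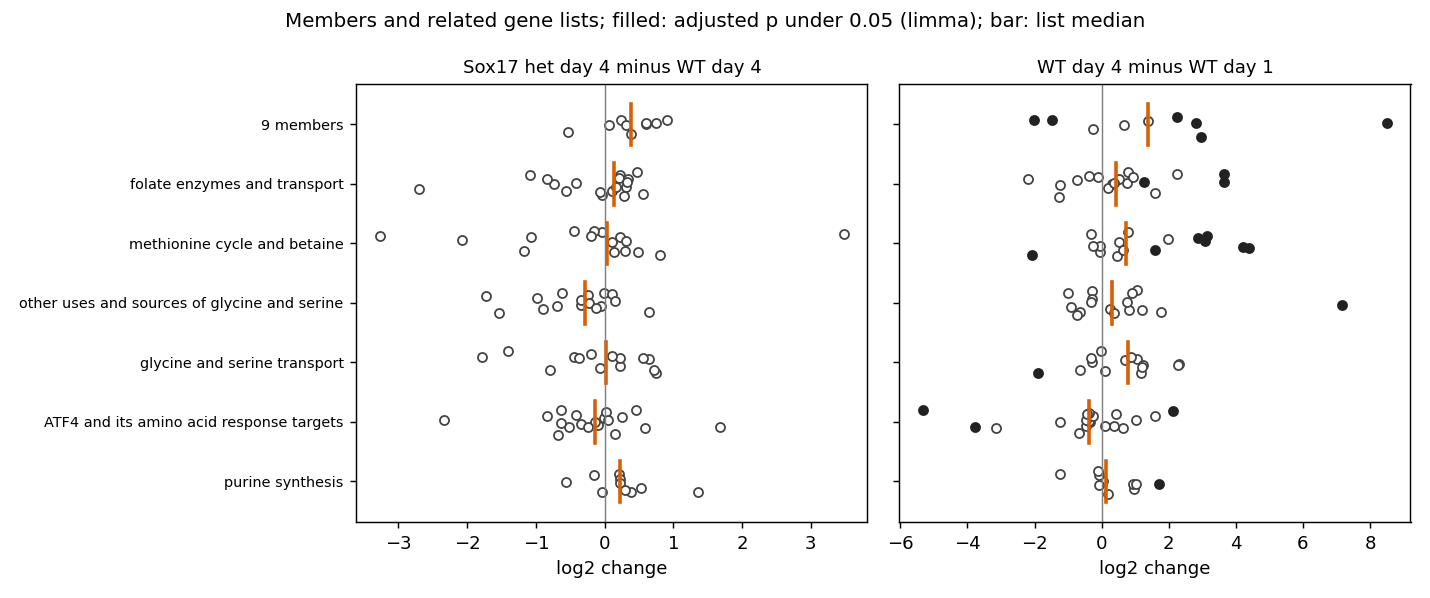
Log2 change of the 9 members and of the genes of 6 related lists, in Sox17 heterozygous against WT epithelium on day 4 (left) and in WT on day 4 against day 1 (right). Each point is a gene, filled where the adjusted p was under 0.05, and the bar is the list's median; the members' medians are 0.38 and 1.40.

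The genes whose profile over the 6 arrays came closest to those of the 2 most variable members were listed among 9857 other genes with a mean signal of at least 200 in some group. For Gldc these were the peptidase gene Mme, the endocytic receptor gene Lrp2, the phospholipase gene Pla2g10, Sptlc3 and the sugar transporter gene Slc5a11, with root mean square differences of 0.26 to 0.63 on the log2 scale after removing each gene's mean. Sptlc3 was thus the one gene of the related lists among the 5. For Mthfd2 they were Zfp599, Ap1s2, Id2, Ppp1r36 and Smc2, at 0.12 to 0.28. With 6 arrays in 3 groups such likeness mostly restates which groups are high.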

How the data were processed

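Total RNA of uterine epithelium was reverse transcribed, amplified and biotin-labelled for 1-colour Affymetrix arrays, 1 per sample, per the labels' protocols. The values the authors deposited are intensities, 1 linear signal per probe set. The submitters' processing notes list RMA, Affymetrix Expression Console and, in addition, Transcriptome Analysis Console. The signals have a 2% trimmed mean of 500.0 on each array, unequal quantiles and no log scale. RMA usually gives log2 values after quantile normalization, so these signals are not its usual output. The signals alone do not show which method made them. Detection calls were not used, and 6 arrays limit the precision. Titles gave genotype and day.

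The platform annotation gave 1 symbol to 34945 of 45101 probe sets, and these were tested. On the scale log2(signal + 1), limma 3.58.1 under R 4.3.3 was fitted over all 6 arrays by group (3 residual degrees of freedom, default eBayes), with Benjamini-Hochberg adjustment over all of them. The brightest probe set on average stood for its gene. Errors after ± are limma's standard errors in the default model, also where a p-value with a trend is given. The words "with a trend" mean eBayes with an intensity trend. The smallest exact permutation p for 2 arrays against 2 is 0.333, so no such test was made. The fit was also run on simulated data with normal noise, which checks the code and not the calls made here. The rule was to name all members, up to 4 genes of smallest p from each related list, and 5 genes of like pattern for 2 members. Dld, Mthfd1l and Atf4 were named for their roles, after their values were seen. The members and lists were chosen with earlier results of these data known. Alternatives were a pseudocount of 32, quantile normalization, median centring, a filter on dim probe sets, a trend, array weights, 4-array fits, other ways to count a gene, an adjusted p of 0.10 and leaving out each array; a trend joined with centring or with leaving out an array was added after seeing the data. Promoter windows came from RefSeq (GRCm38.p6) and matched all 10 genes by symbol.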

Additional observations from a re-analysis of the deposited data

How the results depend on the processing

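No alternative setting turned the direction of a member called with day or in heterozygotes against WT on day 1. For WT day 4 against day 1, 6 members were called as reported, 3 with array weights, 0 in a fit of only the 4 arrays and 0 to 5 when an array was left out. For heterozygous against WT day 4 the count was 0 as reported and 0 to 0 when an array was left out. It was 1 with an intensity trend, also without WT array 277, 284, 302 or 303 (1 each), but 0 without heterozygous array 253 or 281. For heterozygous day 4 against WT day 1 the count was 5 as reported, and 0 to 5 when an array was left out. Leaving out an array that leaves a group with 1 sample assumes that it varies like the others. The count over all probe sets with day was 3210 as reported, 7249 with a trend, 2197 after centring, 1598 with array weights and 0 with 4 arrays (7417 at an unadjusted p under 0.05). The share of rises among them was 1761 of 3210 as reported and 941 of 2197 after centring.

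Reversed signs were seen only for values that had not passed. In heterozygotes against WT on day 4, quantile normalization gave 0.42 and 0.33 at the dimmer Shmt2 probe sets 1455985_x_at and 1434204_x_at and 0.34 at Phgdh 1454714_x_at, centring gave 0.14, 0.0084 and 0.019 at the same 3, and the mean of its probe sets gave -0.070 for Shmt2. When an array was left out, the ranges there were -0.066 to 0.54 for Gldc, -0.15 to 0.42 for Shmt1 1425177_at, -0.64 to 0.38 and -0.83 to 0.29 for the dimmer Shmt2 probe sets, -0.31 to 0.51 for Phgdh 1437621_x_at, -0.99 to 0.48 for Phgdh 1454714_x_at, -0.24 to 0.37 and -0.10 to 0.63 for the 2 brighter Mthfd1 probe sets and -0.11 to 0.91 for Mthfd2 1419253_at. With day they were -0.52 to 0.26 for Phgdh 1456584_x_at and -0.62 to 0.57 for 1437621_x_at, and in heterozygotes against WT day 1 -0.15 to 0.63 and -0.52 to 0.67. The cause was not tested. No paired analysis was possible because the groups share no replicate numbers. Signals of Phgdh and of Gldc on day 1 are near the dim end, which limits their size.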
